A study of Homo sapiens with 24 samples.

Results

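Glycolysis breaks glucose down to pyruvate and lactate, and hypoxia-inducible genes are those that cells switch on when oxygen is scarce. A set of 39 such genes was followed across 24 two-colour expression arrays of human cancer cell lines. The members were chosen by name: 17 glycolytic enzymes, 4 transporters of glucose and lactate, 4 regulatory kinases, the HIF alpha subunits HIF1A and EPAS1, 2 HIF prolyl hydroxylases and 10 other hypoxia-inducible genes. All 39 had probes on both array designs, out of 44639 gene names on either design. On each array the Cy5 channel held RNA of treated cells and the Cy3 channel RNA of control cells of the same line, without dye swap, so that a dye effect of a probe cannot be told apart from a treatment effect on any single array.

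The study covered 7 lines, 13 treatments and 2 array designs. On the first design, genistein, a soy isoflavone, was set in PC3 and DU145 (1 array each) against cells that the labels give as having no treatment and the study's methods as having the vehicle. Wogonin, a plant flavone, was set against DMSO in SAS and FaDu. An siRNA against CAV2 (si-CAV2) was used in A498 and 786O and an siRNA against LAMB3 (si-LAMB3) in FaDu and SAS. Transfected miRNAs were miR-145 in PC3, DU145 and LNCap, miR-375 in FaDu, miR-29a in SAS, and miR-23b, miR-24 and miR-27b in PC3. On the second design were miR-143 and si-GOLM1 in DU145 and PC3, miR-27b in 786O and A498, and the chemokine CXCL10 for 12 h and 24 h against untreated 786O cells. The siRNA and miRNA arrays had a control that the labels call only "control". PC3, DU145 and LNCap are labelled prostate cancer, A498 and 786O renal cell carcinoma, and FaDu and SAS head and neck squamous cell carcinoma. Every array is 1 treated and 1 control culture of 1 line. No line and treatment had a second array, except for the 2 times of CXCL10. On the first design the spread behind each test is thus that between lines. On the second, the spread shared by the treatments also holds that between the 2 times of CXCL10 in 786O, which were fitted as 1 treatment.

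As background, the HIF transcription factors pair an alpha subunit with ARNT. In oxygen the prolyl hydroxylases (EGLN genes) mark the alpha subunit for removal through the VHL protein. In its absence the alpha subunit stays and binds promoters that carry the letters ACGTG or GCGTG. A498 and 786O are known as lines without working VHL protein. Among the known HIF targets are glycolytic enzymes, the glucose transporter SLC2A1, the pH regulator CA9, the mitophagy genes BNIP3 and BNIP3L, and the hydroxylase EGLN3 itself.

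All 24 arrays gave usable signal: 53.2% to 67.6% of probes were well above background in Cy3 and no spot was saturated. In the siRNA arrays the targeted gene had log2 ratios of -3.80 (A498) and -3.20 (786O) for CAV2, -3.02 (DU145) and -4.15 (PC3) for GOLM1 and -2.50 (FaDu) and -0.89 (SAS) for LAMB3. The kidney tubule markers PAX8, PAX2, CDH6 and LHX1 were all 4 well above background in both A498 and 786O, against 1 or 2 in each other line. The prostate list was complete in LNCap and, on the second design at low signal, in A498. In PC3 and DU145 it was not complete on either design. Of 5 squamous markers 5 were above background in FaDu, 4 in SAS and 0 to 2 elsewhere. At most 1 of 3 fibroblast and 2 of 3 leukocyte markers were above background in any line. One feature of the control channels touches later results. The Cy3 channels of the miR-23b, miR-24 and miR-27b arrays in PC3 correlated at r of 0.988 to 0.989 with one another, with median differences of at most 0.10. The other 19 pairs of controls of one line correlated at 0.929 to 0.987. The labels do not say whether these 3 arrays shared a control RNA.

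Levels below are log2 Cy3 signals relative to the 75th percentile of the array, as mean ± SD over the control channels of a line, and they are compared for one gene across lines, never between genes. HIF1A, the alpha subunit HIF-1, was not well above background in 786O on any control channel. Its level there was -7.04 on the first design (1 control) and -6.35 ± 0.28 on the second (n = 3). In A498 it was 2.44 and 1.81, in PC3 2.95 ± 0.22 (n = 5), in DU145 2.98 ± 0.13 (n = 2), in SAS 2.43 ± 0.21 (n = 3), in FaDu 1.75 ± 0.52 (n = 3) and in LNCap 1.0. The second design gave 2.15 ± 0.22 in PC3 and 3.63 ± 0.26 in DU145 (n = 2 each). Thus 786O stood alone at the bottom, while A498 lay among the other lines on the first design and below both prostate lines on the second. HIF1A in 786O was not above background, so its fold difference is not exact. The lowest signals marked well above background on the 786O arrays were -5.80 on the first design and -4.27 (mean) on the second. The mean HIF1A level of all other lines lay 268-fold and 111-fold above these. They are no strict bounds, since probes not so marked could lie higher, as KLK3 did at -4.93 in 786O on the first design. The probe lies on chr14:62214845-62214904 (hg19), and a further HIF1A probe at chr14:62211472-62211531 gave -6.97 in 786O against -1.55 to 0.39 in the other 6 lines of the first design. In the treated channels of all 4 arrays of 786O, HIF1A was also not above background.

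EPAS1, the alpha subunit HIF-2, showed another order. It was 3.65 in 786O, 3.83 in A498, 3.78 ± 0.74 in DU145, 4.17 ± 0.96 in PC3 and 4.23 ± 0.63 in FaDu, which do not differ beyond the spread of the controls. LNCap was far below at -2.06 (1 control) and SAS above at 6.75 ± 0.42. EPAS1 on the second design ranged from 4.08 ± 0.18 in DU145 to 5.08 in both A498 and PC3.

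**Figure D1:**
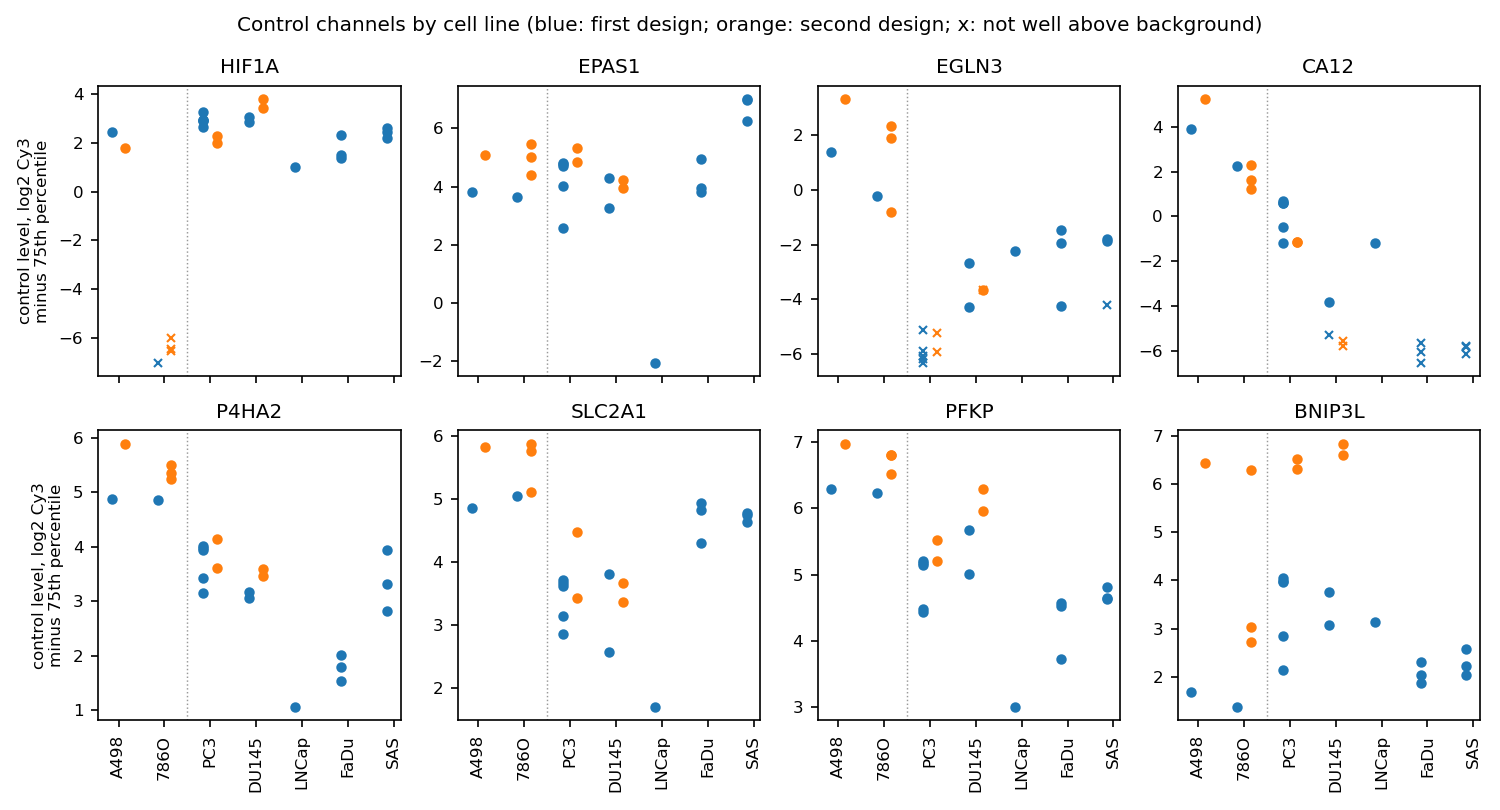
Control-channel level of 8 members by cell line, as log2 Cy3 signal minus the 75th percentile of the array (y axis). Each point is 1 control channel, blue for the first design and orange for the second, and crosses mark signals not well above background. HIF1A in 786O lies at -7.04 on the first design, below every other line, and CA12 and EGLN3 are highest in A498 and 786O.

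Renal lines were compared with the others using 1 mean per line, A498 and 786O against 5 lines on the first design and against PC3 and DU145 on the second, in limma with Benjamini-Hochberg adjustment over all genes tested. None of the 39 members passed an adjusted p of 0.05 on either design, where 0.455% of all 23733 genes tested did on the first and 0% of 22449 on the second. At an unadjusted p under 0.05 there were 6 members (15.4%) on the first design, against 10.1% of all genes, and 7 (17.9%) on the second, against 9.63%. Both designs measured the same 2 renal lines, so the second is no independent sample of renal cancer.

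The hydroxylase EGLN3 and the carbonic anhydrase CA12, which regulates pH outside the cell, were the members most above the other lines in the renal lines. EGLN3 was 1.37 in A498 and -0.21 in 786O on the first design, then -2.24 in LNCap, -2.55 ± 1.48 in FaDu, -2.63 ± 1.37 in SAS, -3.48 ± 1.13 in DU145 and -5.92 ± 0.46 in PC3, where it was not well above background in 5 of 5 controls. Both renal lines thus lay above all 5 others, with a difference of 3.95 (SE 1.05, adjusted p = 0.276). On the second design it was 3.31 in A498 and 1.15 ± 1.69 in 786O against -3.66 ± 0.01 in DU145 and -5.58 ± 0.49 in PC3, a difference of 6.85 (SE 1.08, adjusted p = 0.208). In the other lines EGLN3 was well above background on 8 of 14 controls of the first design and 1 of 4 of the second, so both differences rest in part on background signal. CA12 was 3.92 in A498 and 2.23 in 786O, against 0.05 ± 0.84 in PC3, -1.18 in LNCap and -4.57 ± 1.05 in DU145. In FaDu and SAS, CA12 was not well above background on any control. The CA12 difference was 6.62 (SE 1.85, adjusted p = 0.290) on the first design and 6.89 (SE 2.04, adjusted p = 0.440) on the second, with CA12 above background on 7 of 14 and 2 of 4 controls of the other lines.

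Both renal lines lay above every other line for 6 of 39 members on the first design (15.4%, against 7.76% of all genes). These were CA12, EGLN3, P4HA2 (a collagen prolyl hydroxylase), the phosphofructokinase PFKP, PFKFB3 (which makes the activator of phosphofructokinase) and the glucose transporter SLC2A1. P4HA2 was 4.86 in 786O and 4.87 in A498, and from 1.06 in LNCap to 3.70 ± 0.39 in PC3 in the others. PFKP was 6.23 and 6.29, against 3.0 in LNCap to 5.34 ± 0.47 in DU145. SLC2A1 was 5.04 and 4.85, but SAS at 4.72 ± 0.07 and FaDu at 4.69 ± 0.34 lay just beneath. The sole member below every other line on this design, where 10.7% of all genes were, was BNIP3L, at 1.37 in 786O and 1.69 in A498 against 2.08 ± 0.22 in FaDu as the lowest other line. BNIP3L did not keep that order on the second design, where the difference between renal and other lines was 0.15 with the same probe. The brightest probe there, which stood for the gene, gave -1.33. It had 786O at 4.02 and A498 at 6.44, against 6.41 in PC3 and 6.71 in DU145, and the 3 controls of 786O spanned 3.56.

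For the second design 17 members (43.6%) lay above both prostate lines in both renal lines, against 23.1% of all genes, and HIF1A and HK2 lay below, against 18.9% of all genes. The 17 held 7 glycolytic enzymes with small gaps (PFKL, PGK1, TPI1, GAPDH, PGAM1, PKM2 and LDHA, differences of 0.50 to 0.99) besides PFKP, and SLC2A1, SLC2A3, SLC16A3, PFKFB3, ADM, CA12, EGLN3, NDRG1 and P4HA2. NDRG1, a differentiation-related gene strongly raised by hypoxia, was 8.10 in A498 and 6.37 ± 1.93 in 786O against 4.00 ± 1.21 in PC3 and 2.68 ± 0.24 in DU145 (difference 3.90, SE 0.85, adjusted p = 0.327). Its 3 controls in 786O spanned 3.76, so that the spread within one line neared the difference between groups. On the first design the NDRG1 level of PC3, 6.22 ± 1.43, was as high as that of A498, 6.25. The glucose transporter SLC2A3 was not well above background on any of the 4 controls of PC3 and DU145. Its mean in the renal lines (above background on 2 of 3 controls in 786O) was 2.09-fold above the lowest signals marked well above background there (mean -3.88). This is no strict bound, since PAX8, not so marked, reached -3.67 in DU145.

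CA9, the best known pH enzyme among HIF targets, was well above background in A498 (-2.52 and -1.39) and on all SAS controls (-1.08 ± 1.33, n = 3). It was not above background in 786O on the first design nor in DU145 and LNCap, and of the PC3 controls it was above background on 0 of 5 on the first design and 2 of 2 on the second. The median difference of the 39 members was 0.14 on the first design, beside -0.08 over all genes tested, and 0.64 beside 0.02 on the second.

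A further pair of lists of pathway genes was read beside the members. Of other HIF pathway and target genes, 29 of 30 were tested and 0 passed the adjusted p by limma on either design, with 8 and 6 at an unadjusted p under 0.05. Of all genes 10.1% and 9.63% were at that unadjusted p. Both renal lines were above every other line for 8 of the 29 (27.6%) on the first design and 15 (51.7%) on the second, against 7.76% and 23.1% of all genes. They were below for 2 and 2, against 10.7% and 18.9% of all genes. Among the list genes above, PLIN2, which coats lipid droplets, differed by 5.22 and 2.80. Of other glycolysis and pyruvate genes, 22 of 29 were tested on the first design and 0 passed by limma, with 0 at an unadjusted p under 0.05 there and 1 on the second design. None was above every other line (7.76% of all genes) and 4 (18.2%, against 10.7% of all genes) were below, among them the gluconeogenic enzyme FBP1 (difference -4.23). Of 21 tested on the second design 5 (23.8%) were above and 3 (14.3%) below, FBP1 again (-7.32) among the latter. The shares of all genes there were 23.1% above and 18.9% below.

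The control channels also showed how far these genes moved between control cultures of one line, which are untreated, vehicle or transfection controls. With the 3 alike PC3 controls counted once, NDRG1 spanned 3.30 across the PC3 controls, from 3.79 on the miR-145 array and 6.06 on the genistein array to about 7.1 on the 3 alike ones (6.99 to 7.15). This range exceeded that of 99.7% of genes above background on every control. In FaDu NDRG1 spanned 2.65, in SAS 2.31 and in 786O 3.76, each wider than for at least 98.8% of genes. The median range of the hypoxia-inducible genes with EGLN1 and EGLN3 was 1.84 in PC3, against 0.84 for the enzymes and 0.60 over all genes. In FaDu these medians were 1.31, 1.09 and 0.56, in SAS 0.52, 0.35 and 0.46, and in 786O 0.85, 0.44 and 0.70. In PC3 and FaDu the controls of the first design came from slides 1 and 2, so slide and culture are mixed in their ranges. For the treatments below, the treated channel is therefore also set against the other controls of its line.

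**Figure D2:**
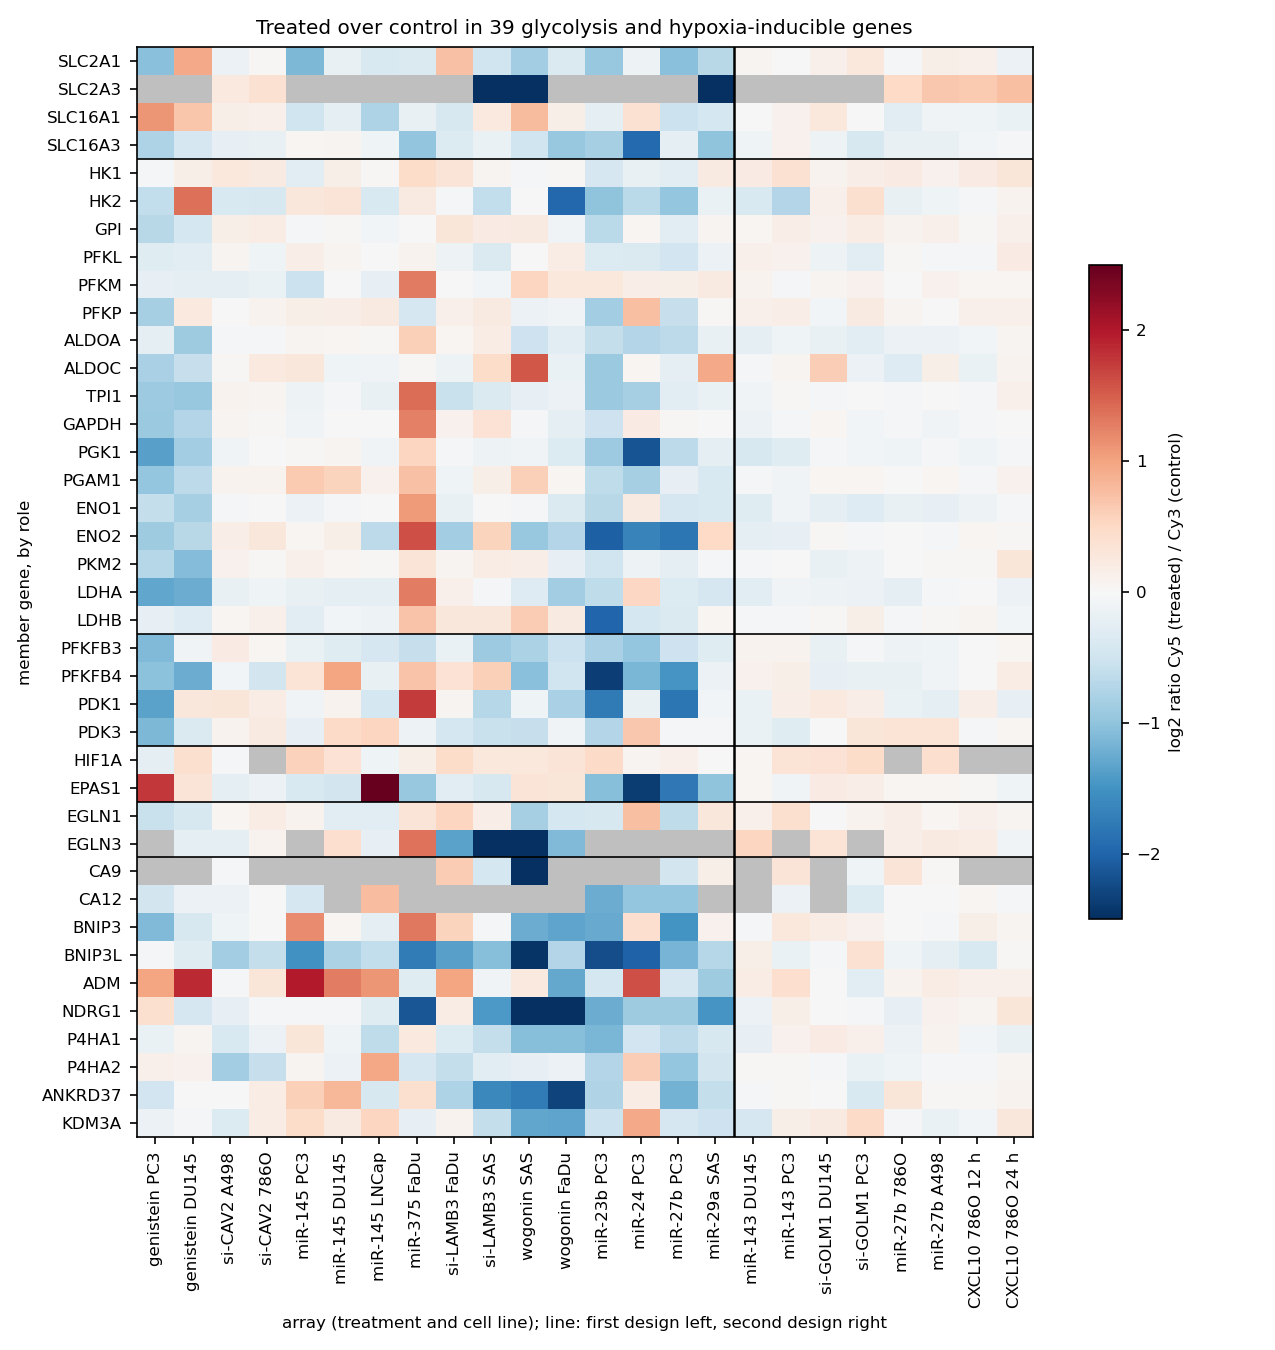
Log2 ratio of treated over control (colour, blue lower and red higher, clipped at 2.5 either way) for the 39 members (rows, by role) on the 24 arrays (columns, by treatment and line). Grey marks genes not well above background in either channel. The glycolytic enzymes are blue on the 2 genistein arrays, the hypoxia-inducible genes on the 2 wogonin arrays, and the 8 arrays of the second design are pale.

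With genistein, 8 glycolytic enzymes fell across both prostate lines. By limma, 9 of the 36 members tested fell at an adjusted p under 0.05 (4.68% of all 20147 genes fell) and 1 rose (4.25% of all genes). The 9 were LDHA, PFKFB4, PGK1, TPI1, PKM2, GAPDH, PGAM1, ENO1 and GPI, that is 8 enzymes and 1 regulatory kinase, and the 1 that rose was the lactate transporter SLC16A1. By size, 10 of 36 members (27.8%) had ratios below -0.5 in both lines, against 7.14% of all genes, and 2 had ratios above 0.5, against 8.08%. The calls rested on both lines and on the shared spread: without the PC3 array 0 members were called, without the DU145 array 6 fell and 0 rose, and without either si-CAV2 array 5 fell and 0 rose.

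LDHA, which turns pyruvate into lactate, had a level of 7.51 in control and 6.20 in treated PC3 cells, and of 6.58 and 5.34 in DU145. The ratios of -1.31 and -1.24 give a mean fall of 1.27 (SE 0.15, adjusted p = 0.008, n = 2). PGK1, the first enzyme of the pathway that yields ATP, went from 7.11 to 5.76 and from 5.71 to 4.85 (mean ratio -1.11, SE 0.15, adjusted p = 0.011). These falls were alike in both lines to within 0.5. TPI1, which interconverts the triose phosphates, had ratios of -0.91 in PC3 and -0.95 in DU145 (adjusted p = 0.011), and the pyruvate kinase gene, named PKM2 on the arrays, -0.72 and -1.09 (adjusted p = 0.014). GAPDH, often used as a reference gene, had -0.92 and -0.73 (adjusted p = 0.013). PFKFB4, a kinase that sets the level of the phosphofructokinase activator, had -1.02 and -1.24 (adjusted p = 0.036). ENO2, an enolase, had -0.88 and -0.68 and the aldolase ALDOC -0.81 and -0.58, without passing the test. Over all 16 arrays of the first design, LDHA, TPI1 and ENO1 had ratios below 0 on 13 each (medians -0.23, -0.20 and -0.10). PGK1 had them on 12, PFKFB4 on 11, and GAPDH, GPI, PGAM1 and PKM2 on 7 each. A dye effect was not tested.

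The medians of the groups are a description, and their difference was not tested. The median ratio of the 17 enzymes was -0.72 in PC3 and -0.65 in DU145. That of the hypoxia-inducible genes with EGLN1 and EGLN3 was -0.16 (10 measured) and -0.15 (11 measured), beside 0.08 and -0.02 over all genes. ADM, the vasodilator peptide adrenomedullin, had ratios of 1.0 and 1.86 (mean 1.43, SE 0.41, adjusted p = 0.065), and SLC16A1 1.10 and 0.69 (mean 0.89, SE 0.22, adjusted p = 0.045). NDRG1 had 0.40 and -0.41. The lines had opposite signs for hexokinase HK2, with -0.61 in PC3 and 1.37 in DU145, and for SLC2A1, with -1.04 and 0.94. PDK1, the kinase that shuts off pyruvate dehydrogenase, was -1.35 in PC3 and 0.29 in DU145, and PDK3, PFKFB3 and BNIP3 also lay below -1 in PC3 alone.

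Against the other PC3 controls, 20 of 36 members had a ratio under -0.5 in PC3 (18% of all genes did), and for 14 of the 20 the treated level lay below every other PC3 control of the design, as it did for 69.7% of all such genes. The own control lay above the others for 2 of the 20, against 40.9% of all such genes. A ratio above 0.5 in PC3 was found for 3 members (24.6% of all genes). For all 3 the own control lay below every other PC3 control (44% of all such genes), ADM at 1.14 among them. The treated level lay above every other PC3 control for 1 of the 3 (66.4% of all such genes). In the pathway lists, 3 of 27 other HIF pathway and target genes rose (DDIT4, an inhibitor of mTOR, by 2.32, STC2 by 1.99 and PLIN2 by 1.54) and ARNT2 fell by 1.41, and of 19 other glycolysis and pyruvate genes BRP44L, a subunit of the mitochondrial pyruvate carrier, rose by 1.35 and PFKFB2 by 1.21.

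**Figure D3:**
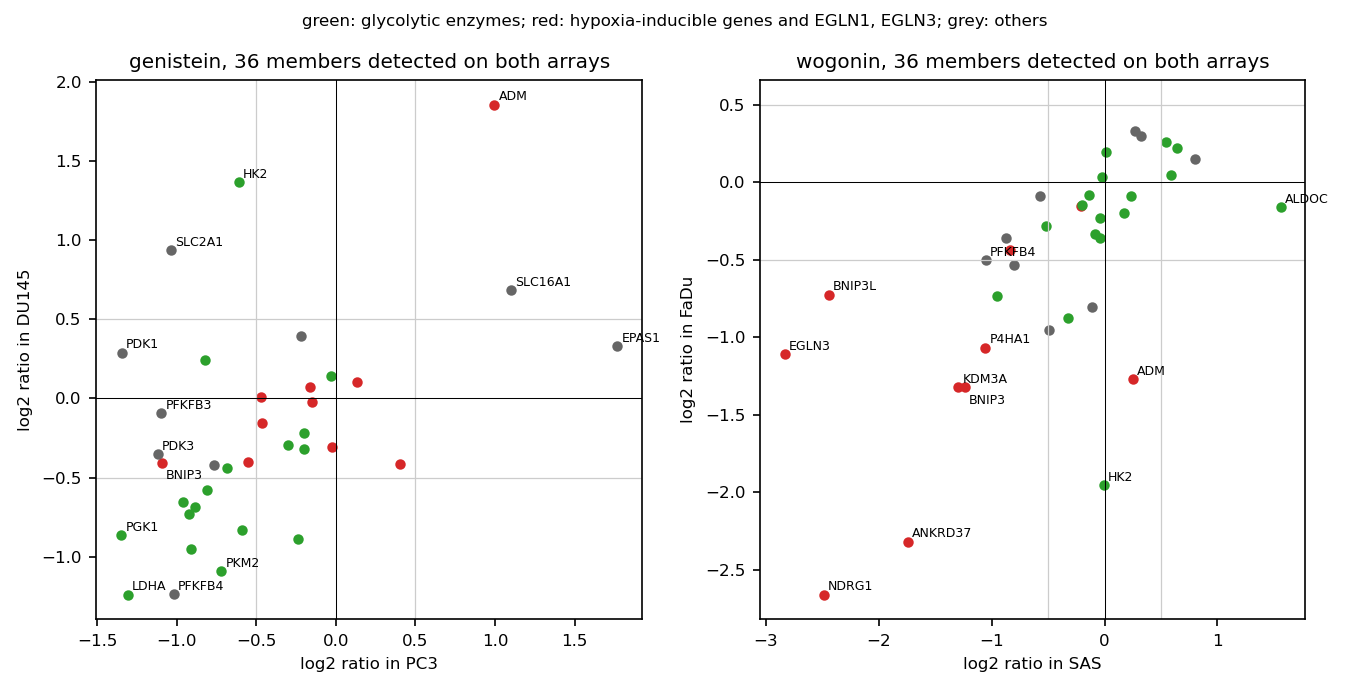
Log2 ratios of 36 members in both lines of a treatment, genistein in PC3 (x) against DU145 (y) on the left and wogonin in SAS (x) against FaDu (y) on the right, coloured by role. Enzymes such as LDHA (-1.31, -1.24) gather at the lower left under genistein, and NDRG1 (-2.49, -2.66) and ANKRD37 (-1.75, -2.32) do so under wogonin.

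With wogonin, 4 hypoxia-inducible genes fell across both head and neck lines. By limma 4 of 36 members fell (0.892% of all 19732 genes did). By size 10 of 36 (27.8%) lay below -0.5 in both lines, against 3.63% of all genes, and 0 lay above 0.5, against 8.35%. Without the SAS array 0 members were called, and without the FaDu array 2 fell and 1 rose. The 4 that fell were NDRG1, ANKRD37 (a small ankyrin repeat protein raised in hypoxia), KDM3A (a histone demethylase) and P4HA1 (a collagen prolyl hydroxylase). NDRG1 went from 6.52 to 4.03 in SAS and from 6.78 to 4.12 in FaDu (ratios -2.49 and -2.66, mean -2.57, SE 0.34, adjusted p = 0.014). ANKRD37 went from 0.16 to -1.59 and from 0.63 to -1.69 (mean -2.03, SE 0.32, adjusted p = 0.024). The ratios of KDM3A were -1.30 and -1.32 (adjusted p = 0.022) and those of P4HA1 -1.06 and -1.07 (adjusted p = 0.040), nearly equal in both lines.

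A further 6 members lay below -0.5 in both lines without passing the test. EGLN3 had ratios of -2.83 in SAS and -1.11 in FaDu (adjusted p = 0.055), BNIP3L -2.44 and -0.73 (adjusted p = 0.059) and BNIP3, a mitophagy receptor, -1.24 and -1.32 (adjusted p = 0.075). ENO2 had -0.95 and -0.73, PFKFB4 -1.05 and -0.50 and PFKFB3 -0.80 and -0.53. BNIP3L is to be read with care, since its probe had a ratio below 0 on all 16 arrays of the first design (-2.44 to -0.02, median -0.97). Of the 4 called genes, NDRG1 was below 0 on 14 of these arrays (median -0.65) and P4HA1 on 13 (median -0.39). KDM3A was on 10 (median -0.18) and ANKRD37 on 9 (median -0.43). CA9 was -2.63 in SAS and not well above background in FaDu, and HK2 was -1.95 in FaDu and -0.01 in SAS.

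The median ratio of the glycolytic enzymes was -0.02 in SAS and -0.16 in FaDu, while that of the hypoxia-inducible genes with EGLN1 and EGLN3 was -1.30 and -1.19, and that of all genes 0.09 and 0.08. LDHA had -0.32 and -0.88 (adjusted p = 0.074) and PGK1 -0.09 and -0.34. HIF1A itself had 0.27 and 0.33 and EPAS1 0.32 and 0.30. Of 26 other HIF pathway and target genes, MXI1, a MYC antagonist, fell by 1.85 (adjusted p = 0.010). Of 18 other glycolysis and pyruvate genes TXNIP, which curbs glucose uptake, rose by 2.01 (adjusted p = 0.014).

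The FaDu control of the wogonin array was high for these genes. It lay above both other FaDu controls for 25 of 36 members, against 29.8% of all genes. A ratio below -0.5 was found for 15 members in FaDu (9.3% of all genes). The control lay above both others for 13 of the 15 (45.7% of all such genes), and the treated level lay below both for 7 (56.9%). In SAS the treated level lay below both other controls for 14 of the 16 members with such a ratio (65% of all such genes), a ratio that 14.6% of all genes had. ANKRD37, BNIP3L, KDM3A, NDRG1 and P4HA1 were below the other controls in both lines, 5 of the 10 members past the size limit. The share of all genes past that limit that were so in both lines was not counted. The 5 are thus not read as particular to the members. NDRG1 after wogonin was 4.12 in FaDu, just below the 4.13 of the si-LAMB3 control, and 4.03 in SAS, below the 4.21 of the miR-29a control. The part of the control in these ratios was not tested.

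**Figure D4:**
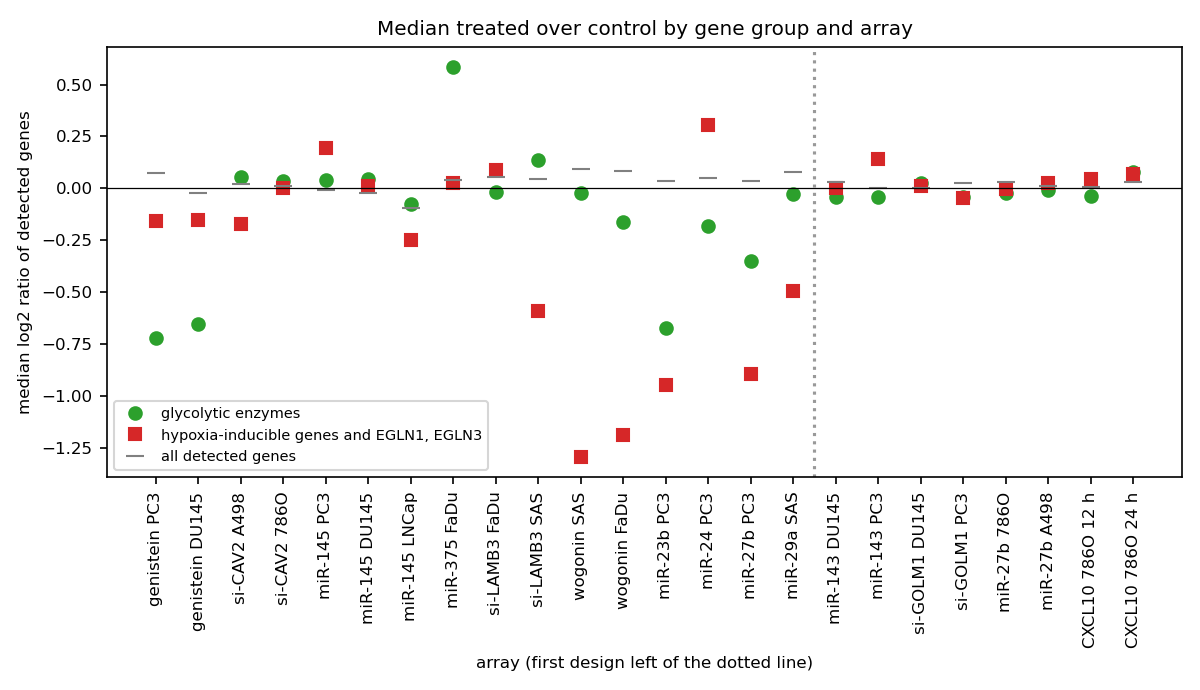
Median log2 ratio (y axis) on each of the 24 arrays (x axis) for the glycolytic enzymes, the hypoxia-inducible genes with EGLN1 and EGLN3, and all genes above background. The enzyme medians are -0.72 and -0.65 on the genistein arrays and -0.67 on the miR-23b array, and the hypoxia-inducible genes lie lowest on the wogonin arrays (-1.30 and -1.19), with all genes near 0.

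Sequences before the transcript start are shown for the 3 genes that fell with wogonin and have a window in RefSeq (GRCh38.p14) and for LDHA and PGK1, which fell with genistein. Each is the 250 bases before the start, 5′ to 3′ on the strand of the gene, with ACGTG and GCGTG on either strand in capitals, the core letters to which HIF binds. Overlapping matches were joined, and CACGTG is a match on both strands.
ANKRD37, chr4:185396591-185396840, plus strand: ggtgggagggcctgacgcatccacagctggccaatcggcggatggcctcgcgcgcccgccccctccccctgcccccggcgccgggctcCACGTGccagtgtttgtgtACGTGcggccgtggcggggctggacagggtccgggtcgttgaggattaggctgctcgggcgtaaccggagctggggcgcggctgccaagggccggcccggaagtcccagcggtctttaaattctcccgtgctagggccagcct
KDM3A, chr2:86441121-86441370, plus strand: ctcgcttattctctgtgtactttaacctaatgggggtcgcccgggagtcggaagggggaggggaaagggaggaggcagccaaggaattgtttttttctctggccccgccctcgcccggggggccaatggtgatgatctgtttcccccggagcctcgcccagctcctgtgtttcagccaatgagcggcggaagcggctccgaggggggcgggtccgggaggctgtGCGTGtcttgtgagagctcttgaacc
P4HA1, chr10:73096867-73097116, minus strand: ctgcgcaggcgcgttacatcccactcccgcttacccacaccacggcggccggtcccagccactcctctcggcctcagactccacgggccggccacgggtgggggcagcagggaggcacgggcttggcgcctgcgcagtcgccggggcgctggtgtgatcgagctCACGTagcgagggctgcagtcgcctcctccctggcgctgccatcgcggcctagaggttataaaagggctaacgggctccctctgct
LDHA, chr11:18394313-18394562, plus strand: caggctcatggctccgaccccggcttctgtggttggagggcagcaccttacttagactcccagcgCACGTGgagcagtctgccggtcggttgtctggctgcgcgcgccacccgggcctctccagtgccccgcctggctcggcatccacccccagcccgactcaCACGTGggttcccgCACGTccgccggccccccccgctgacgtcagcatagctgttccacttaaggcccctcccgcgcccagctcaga
PGK1, chrX:78103998-78104247, plus strand: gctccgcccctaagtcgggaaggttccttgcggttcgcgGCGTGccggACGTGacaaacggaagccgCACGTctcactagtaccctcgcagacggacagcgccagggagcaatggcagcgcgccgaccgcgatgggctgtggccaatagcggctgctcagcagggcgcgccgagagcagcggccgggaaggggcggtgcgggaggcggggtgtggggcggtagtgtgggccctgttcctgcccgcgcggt
In the windows shown, ANKRD37 and PGK1 each held 3 matches, LDHA 5, and KDM3A and P4HA1 1. LDHA and KDM3A each had a further start downstream, whose window, not shown, held 1 match. Of the 63 windows of 35 matched members, 38 (60.3%) held at least 1 match, against 43.2% of all 35116 windows. The share was 19 of 37 windows for the enzymes and 19 of 26 for the other members, some of which share bases because one gene can have several starts. A match of 5 letters is a description of the window and not a measured binding site.

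With si-LAMB3, a laminin subunit, EGLN3 fell, from -1.94 to -3.27 in FaDu and from -1.87 to -4.71 in SAS (ratios -1.33 and -2.84, mean -2.08, SE 0.44, adjusted p = 0.031). This was the 1 member of 36 tested that was called (3.67% of all genes fell). The call was lost without the SAS array, without either si-CAV2 array and with the mean of the other treatments subtracted. In FaDu the treated level of EGLN3 lay above the -4.24 of the miR-375 control. In SAS it lay below the lowest control, -4.21, but EGLN3 was well above background on only 2 of 3 SAS controls. By size 3 of 37 lay below -0.5 in both lines (8.11%, against 7.16% of all genes), EGLN3, ANKRD37 (-0.76 and -1.62, adjusted p = 0.062) and BNIP3L (-1.36 and -1.06). ENO2 was -0.86 in FaDu and 0.57 in SAS. In SAS alone SLC2A3 was -2.58 and NDRG1 -1.43. The median of the enzymes was -0.02 in FaDu and 0.14 in SAS. In the pathway lists, 2 of 25 other HIF pathway and target genes fell and 2 rose, and 1 of 19 other glycolysis and pyruvate genes fell and 2 rose.

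With si-CAV2, caveolin 2, in both renal lines, 0 of 36 members tested passed the adjusted p by limma (0.0969% of all genes did) and 1 passed an unadjusted p of 0.05 (4.62% of all genes). That was P4HA2, at -0.87 in A498 and -0.57 in 786O (adjusted p = 0.740). It and BNIP3L (-0.87 and -0.60) made up 2 of 37 below -0.5 in both, against 2.27% of all genes. EGLN3 and CA12, which were higher in these lines than in any other, had ratios between -0.22 and 0.10.

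The transfected miRNAs are listed with the mature sequence of the arm most studied, since the labels name no arm, from RefSeq, with the seed (bases 2 to 8) in capitals. All 7 seeds differ, so that no pair of these miRNAs forms a seed family.
miR-145-5p: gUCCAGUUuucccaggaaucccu
miR-375-3p: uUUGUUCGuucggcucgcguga
miR-23b-3p: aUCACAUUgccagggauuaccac
miR-24-3p: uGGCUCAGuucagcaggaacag
miR-27b-3p: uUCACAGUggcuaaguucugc
miR-29a-3p: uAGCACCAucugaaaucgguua
miR-143-3p: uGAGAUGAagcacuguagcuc

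With miR-145, ADM rose in all 3 prostate lines, from 2.40 to 4.39 in PC3, with ratios of 1.99 in PC3, 1.28 in DU145 and 1.11 in LNCap (mean 1.46, SE 0.33, adjusted p = 0.042). The call was lost without any 1 of the 3 arrays, and also without any 1 of the genistein, si-CAV2 or si-LAMB3 arrays, which share the spread, without the filter on dim probes, and with the mean of the other treatments subtracted. It was the 1 member called higher (2.76% of all genes) and the 1 of 35 above 0.5 in every array (2.92%). BNIP3L was the 1 below -0.5 in every array (2.63% of all genes), at -1.51, -0.79 and -0.61. EPAS1 had 3.49 in LNCap, where its control level was lowest of all lines, and -0.38 in PC3 and -0.45 in DU145. The enzymes lay close to 0, with medians of 0.04, 0.05 and -0.07. In the pathway lists 1 gene was called, TGFA, which rose by 0.92.

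With miR-375 in FaDu (1 array), whose test borrows the spread of the other treatments, 7 of 36 members passed the adjusted p higher (7.30% of all genes) and 2 lower (7.02%). With 1 array, the treatment and the state of this 1 control culture cannot be told apart. The 7 were all enzymes. TPI1 had a ratio of 1.40 (adjusted p = 0.003), GAPDH 1.27 (adjusted p = 0.005), LDHA 1.27 and PFKM 1.30 (each adjusted p = 0.009), ENO1 1.07, ENO2 1.62 and LDHB 0.70. Leaving out single arrays of other treatments gave 5 to 8 calls higher. By size 9 of 36 (25%) lay above 1.0, against 10.2% of all genes, and 2 below -1.0, against 12.4%. The 9 add PDK1 (1.74), EGLN3 (1.36) and BNIP3 (1.32) to the enzymes past 1.0. The 2 lower were NDRG1 at -2.14 (adjusted p = 0.024) and the lactate exporter SLC16A3 at -0.98 (adjusted p = 0.023). For each of the 14 members with a ratio above 0.5, the own control lay below both other FaDu controls (76.4% of all genes with such a ratio), and the treated level lay above both for 4 of the 14 (67.8%). Such a ratio was found for 25.1% of all genes. LDHA, as 1 of them, went from 4.54 to 5.81, when the other FaDu controls were at 5.89 and 6.52. The miR-375 array was on slide 1 and both other FaDu arrays on slide 2, so slide and control culture cannot be told apart. Of 28 other HIF pathway and target genes 9 fell, HMOX1 by 5.60 and IGFBP3 by 3.46 the most, and 2 rose. Of 20 other glycolysis and pyruvate genes 1 fell and 1 rose.

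The 3 miRNA arrays of PC3 with alike controls are given side by side, since their controls may be shared. With miR-23b, 3 of 36 members fell (0.773% of all genes): LDHB, the lactate dehydrogenase subunit of oxidative tissues, by 1.98 (SE 0.19, adjusted p = 0.008), PFKFB4 by 2.36 (adjusted p = 0.028) and TPI1 by 0.93 (adjusted p = 0.039). By size 11 of 36 lay below -1.0 (30.6%, against 4.94% of all genes), PFKFB4, BNIP3L (-2.21), ENO2 (-2.04), LDHB, PDK1 (-1.77) and BNIP3 (-1.26) the farthest. Above 1.0 lay 0 of 36, against 6.52% of all genes. LDHB went from 6.30 to 4.31, while the PC3 controls of this design lay between 6.19 and 6.81.

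With miR-24, 5 members of 36 fell (9.41% of all genes) and 1 rose (9.37%). PGK1 went from 7.87 to 5.72 (ratio -2.16, SE 0.21, adjusted p = 0.001), below the lowest PC3 control of this design, 6.15. SLC16A3 fell by 1.94 (adjusted p = 0.001), BNIP3L by 2.03, ENO2 by 1.67 and TPI1 by 0.83, and KDM3A rose by 0.94 (adjusted p = 0.045). SLC16A3 had a ratio below 0 on 14 of the 16 arrays of the first design (median -0.38). The KDM3A call was lost without any 1 of the genistein, si-CAV2, miR-145 or wogonin arrays and without the filter on dim probes. Past 1.0 were 6 lower (16.7%, against 11% of all genes), EPAS1 (-2.38) and PFKFB4 (-1.15) besides 4 of these, and 1 higher, ADM at 1.62 (against 14.6% of all genes). In the other glycolysis and pyruvate genes, LDHD fell by 1.92 and TXNIP by 1.73, and ENO3, LDHC and PDK4 rose. Of 28 other HIF pathway and target genes 4 fell and 3 rose. Without either si-CAV2 array 3 members fell with miR-24 and 1 with miR-23b.

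With miR-27b in PC3, 0 of 36 members tested passed the adjusted p by limma (2.43% of all genes did), 11 passed an unadjusted p of 0.05 (18% of all genes) and 8 of 37 measured lay below -1.0 (21.6%, against 4.99%). PDK1 (-1.80), ENO2 (-1.80), EPAS1 (-1.79), BNIP3 (-1.49), PFKFB4 (-1.48) and ANKRD37 (-1.19) had the lowest ratios.

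For all 3 arrays the control lay high. They were on slide 2, and the genistein and miR-145 arrays of PC3 on slide 1, so slide and control culture cannot be told apart here. The own control was above both other PC3 controls, those of the genistein and miR-145 arrays, for 28, 28 and 27 members on the miR-23b, miR-24 and miR-27b arrays, against 40.9%, 42.2% and 38.4% of all genes. A ratio under -0.5 was found for 28, 13 and 19 members, against 13.8%, 22.9% and 15.1% of all genes. The treated level lay below both others for 8 of the 28 with miR-23b, 4 of the 13 with miR-24 and 3 of the 19 with miR-27b, against 53.9%, 73.9% and 53.1% of all genes with such a ratio. PDK1 went from 2.90 to 1.13 with miR-23b and from 2.95 to 1.14 with miR-27b, levels between the 0.78 and 1.93 of the other controls. NDRG1 stayed at 5.91 to 6.24 after all 3 miRNAs, near the 6.06 of the genistein control and above the 3.79 of the miR-145 control.

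**Figure D5:**
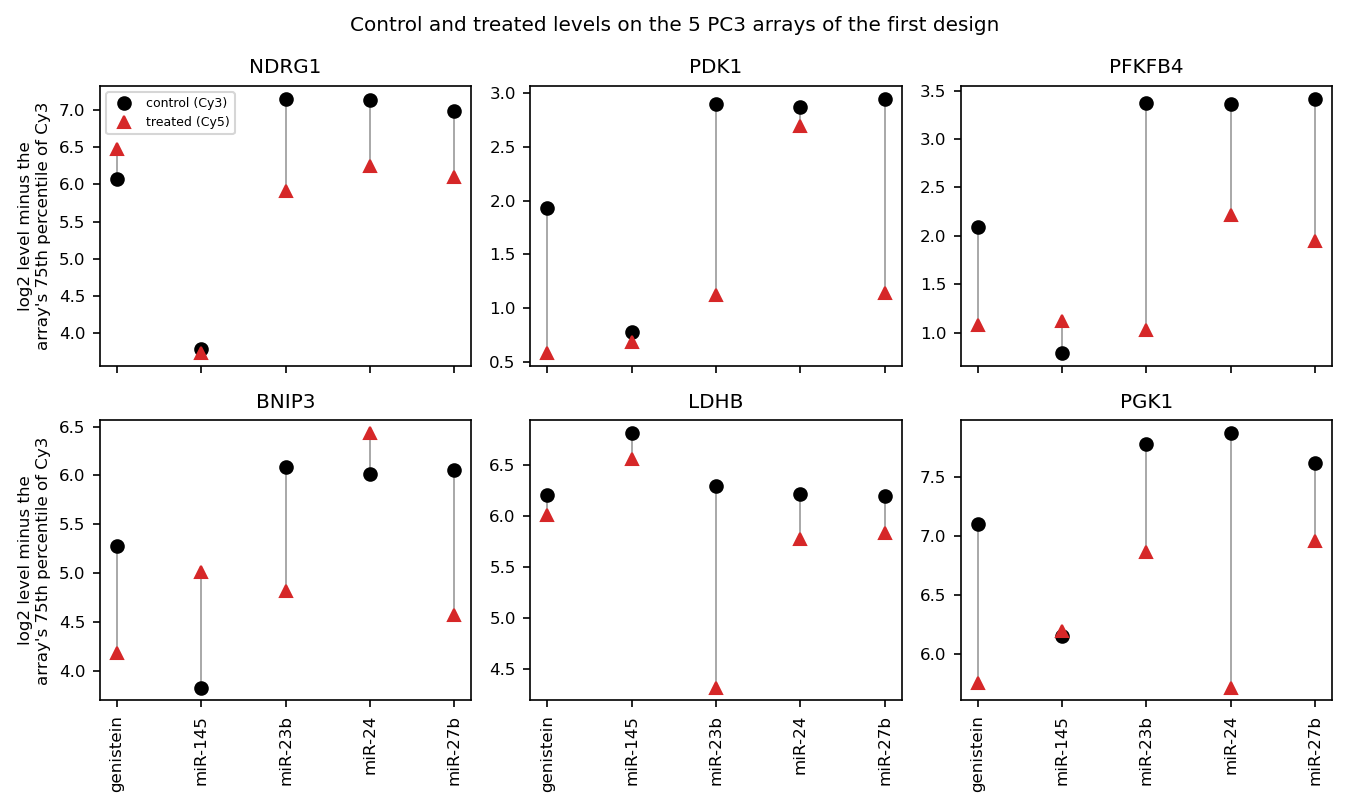
Level of 6 members in the control (Cy3) and treated (Cy5) channel of 5 PC3 arrays of the first design, as log2 signal relative to the array's 75th percentile (y axis). LDHB after miR-23b (4.31) and PGK1 after miR-24 (5.72) lie below every PC3 control, while PDK1 after miR-23b and miR-27b (1.13 and 1.14) lies between the controls.

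With miR-29a in SAS, 0 of 35 members tested passed the adjusted p by limma (0.618% of all genes did) and 2 passed an unadjusted p of 0.05 (12.8% of all genes). Of 37 measured, 3 (8.11%) lay below -1.0, against 3.61% of all genes: NDRG1 (-1.48, adjusted p = 0.238), SLC16A3 (-1.01, adjusted p = 0.089) and SLC2A3, at -2.45 in the control and not well above background in the treated channel. NDRG1 started from 4.21 here, against 6.03 and 6.52 in the other SAS controls. In the pathway lists LOXL2, a lysyl oxidase, fell by 2.42. With si-CAV2, with miR-23b and with miR-27b, 0 genes of these lists passed the adjusted p by limma, as was so for the 4 treatments of the second design.

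On the second design no member passed an adjusted p of 0.05 with any of the 4 treatments by limma, where 0.0871% of all genes did with miR-143, 0.18% with si-GOLM1, 0.723% with miR-27b in the renal lines and 0.125% with CXCL10. At an unadjusted p under 0.05 the members were 8 of 35 with miR-143 (15.6% of all genes), 5 of 35 with si-GOLM1 (18.4%), 1 of 38 with miR-27b (14.2%) and 1 of 37 with CXCL10 (8.14%). Past 0.5 the same way in both arrays were 0 members with miR-143 (2.91% of all genes), 0 with si-GOLM1 (2.6%), 0 with miR-27b (3.5%) and 1 with CXCL10 (2.13%). The 1 was SLC2A3, at 0.66 after 12 h and 0.76 after 24 h. Its probe is dim, not well above background on every 786O control, and its ratio was below 0 on only 1 of the 8 arrays of this design (median 0.58). With miR-27b SLC2A3 had 0.50 in 786O and 0.67 in A498 (adjusted p = 0.440). HK2 with miR-143 was at -0.38 in DU145 and -0.74 in PC3 (mean -0.56, SE 0.12, adjusted p = 0.130). PGK1 had -0.40 and -0.30 on the same arrays (adjusted p = 0.114).

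The miR-27b ratios of PC3 and of the renal lines differed in size. PDK1 had -1.80 in PC3, and -0.17 in 786O and -0.24 in A498. ENO2 had -1.80, against -0.01 and -0.06, and EPAS1 -1.79, against 0.06 and 0.05. PC3 was on the first design and the renal lines on the second, so line and design cannot be told apart, and this difference was not tested.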

How the data were processed

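RNA of treated (Cy5) and control (Cy3) cells was hybridised on 24 two-colour Agilent arrays of 2 designs, 16 on slides 1 and 2 and 8 on slide 3. The authors deposited, per the file headers, intensity values of each spot that Agilent Feature Extraction 10.7.3.1 had background-subtracted and dye-normalised. The deposited log ratio is the log10 of Cy5 over Cy3, and a deposited score per spot is the error of that ratio from the software's technical model (median 0.21 to 0.23 on the log2 scale), which leaves out the spread between cultures. The series matrix of the authors differed from it by 0.

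Control spots and outlier flags were left out, spots of a probe were averaged, and the brightest probe stood for a gene name. "Well above background" means that the software marked 0.5 or more of the spots of a probe so. Levels are log2 processed Cy3 signals minus the 75th percentile of the array. Log ratios were turned to log2. The number of arrays limits the precision, and p-values cover only the spread between these samples. Limma 3.58.1 in R 4.3.3 fitted line means (renal against other lines) and, per design, 1 mean per treatment with a shared spread, with two-sided tests and Benjamini-Hochberg adjustment over all genes tested. Treatments with 1 array were assumed to vary like the others. Calls by size needed a log2 ratio past 0.5 in every array, or past 1.0 with 1 array. In the fit were genes above background on at least 8 of 16 or 4 of 8 arrays. The fits were tested on simulated data.

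The genes given with full values are members past the adjusted p for the baseline, HIF1A and EPAS1 and, per treatment, members past the size limit (up to 6 each way). Other members are named with their values seen. The members and lists were chosen with earlier results of these data known. Alternatives changed the background correction, centring, filters, probe rule, limits and samples. The 3 alike PC3 controls counted once and the treated channel set against other controls were chosen after the data were seen. Promoter and miRNA sequences come from RefSeq (GRCh38.p14 for promoters), with probe positions on hg19 as in the files. Other lists were kidney tubule, prostate, squamous, fibroblast and leukocyte markers, other glycolysis and pyruvate genes, and other HIF pathway and target genes. Some genes of these lists are not reported here by name.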

Additional observations from a re-analysis of the deposited data

Results flagged for a closer look

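Among the 5 lines that are not renal, control levels on the first design (log2 relative to the 75th percentile) set 1 line apart for 4 members, by a gap to the nearest line that was large against the range of all 5. PGK1 was 7.31 in PC3, with 5.44 in SAS as the next. P4HA1 was 4.20 in PC3, with 1.85 in SAS as the next. SLC16A3, the lactate exporter, was 2.71 in LNCap, with 6.59 in FaDu as the next. BNIP3 was 2.63 in FaDu, with 4.67 in SAS as the next. Chance marks about 1 in 20 groups in this way, and 39 members were examined.

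The arrays of 1 treatment went opposite ways by more than 0.5 for 3 members. With genistein, the PC3 array gave HK2 at -0.61 and the DU145 array at 1.37 (log2 ratios), and SLC2A1 at -1.04 and 0.94. ENO2 with si-LAMB3 had -0.86 in FaDu and 0.57 in SAS. With 1 array for each line these differences were not tested.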

How the results depend on the processing

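No paired analysis was possible because each treatment has 1 array per line (1 per time for CXCL10). The ratio already pairs treated with control cells, and replicate numbers only order the arrays. For the renal comparison on the first design, 0 members passed, and 1 passed with each control array as a sample and the line as random block (CA12), on the slide of the renal arrays alone (SLC2A3) and against head and neck lines alone (CA12). Leaving out 1 line gave 0 to 1 (HIF1A without A498). On the second design the 0 became 1 with the random block (P4HA2) and was 0 to 0 without any 1 line. Members above every other line went from 6 to 13 on the renal slide alone and to 6 to 9 without 1 line on the first design, and on the second from 17 to 24 whichever prostate line was left out (range 24 to 24). Members below numbered 1 and, without 1 line, 1 to 3 (3 without DU145) on the first design. On the second the 2 became 1 with probes above background on every array, 1 with the mean over probes and 4 to 7 without 1 line.

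For the treatments of the first design, the 34 calls (24 lower, 10 higher) became 59 (48 lower) with normexp and loess. With the mean of other treatments subtracted, 15 were lower and 20 higher, and 24 of the 34 were kept. Without a filter on dim probes 6 were higher and 25 of the 34 were kept. Normexp with loess and median centring kept all 34. Leaving out 1 array gave 18 to 38 calls, 13 to 28 lower and 5 to 10 higher, the fewest without either si-CAV2 array, which kept 18 of the 34. On the second design normexp with loess turned 0 calls into 5, of which 3 were lower (PGK1 and HK2 with miR-143, ENO1 with si-GOLM1) and 2 higher (HK1 with miR-143, HIF1A with si-GOLM1), and leaving out 1 array left 0 to 0. For genistein by size, a limit of 1.0 left 2 members, 2 lower and 0 higher, and subtracting the mean of other treatments gave 5 higher. For wogonin, 10 members by size became 7 with normexp and loess, 6 with the mean of other treatments subtracted and 6 at a limit of 1.0. No result reversed. The causes of these changes were not tested. Signals near background limit CA9, CA12, EGLN3 and SLC2A3 outside the lines where they were above it.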
